A study of Mus musculus with 96 samples.

Results

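The liver at 20 weeks of high-fat feeding was compared with the liver of mice kept on chow for the same time. The samples were picked by tissue and by weeks on diet as labelled, without use of any measured value. They make up 8 of the 96 poly(A) RNA-seq libraries of the series and 8 of its 48 liver libraries, 1 library per mouse. The 4 mice on a high-fat diet (HFD mice) were HFD511, HFD516, HFD517 and HFD518, and the 4 on a chow diet (CD mice) were CD501, CD502, CD505 and CD507. All were male C57BL/6N mice from GemPharmatech that were 4 weeks old on purchase and ate ad libitum. CD was LabDiet 5001 with 13.5% fat and HFD was Research Diets D12492 with 60% fat, so the feeds also differ in their other ingredients. The labels name no altered gene and no drug, so that the groups differ by feed alone as labelled. Whole pieces from 1 liver region were frozen and homogenized, so each value is a mix over all cell types of the tissue. The mice of the other weeks (4, 8, 12, 16 and 24) are other animals. The comparison asks which liver transcripts differ between the feeds at this late step, and how the difference at week 20 relates to those at weeks 16 and 24.

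The liver takes up fatty acids from blood, burns them in mitochondria and peroxisomes, or esterifies them into triglyceride that is kept in lipid droplets or sent out in lipoproteins. It also makes fatty acids from sugar and cholesterol from acetyl-CoA, under the transcription factors SREBP1c and SREBP2, and it converts cholesterol to bile acids. On long high-fat feeding, mouse hepatocytes are known to store fat in droplets and to switch on PPARG target genes that are otherwise typical of adipocytes. Kupffer cells are the resident macrophages of the liver, and further macrophages enter from blood when fat accumulates.

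Values are FPKM, fragment numbers scaled by transcript length and by the size of the library, as the authors deposited them, and the number of reads behind them is not known. Single values are given in the order CD501, CD502, CD505 and CD507, then HFD511, HFD516, HFD517 and HFD518. Differences are HFD minus CD means of log2(FPKM + 1), a scale that understates changes of weakly expressed genes, tested with limma and adjusted by the Benjamini-Hochberg method over all 10184 genes tested, which are those that reached 1 FPKM in 4 or more libraries (the expression filter). "Rose" and "fell" are used for genes with an adjusted p below 0.05, and a DEG had in addition a log2 fold change of at least 1 in either direction. The p-values measure the spread between 4 mice of each group.

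At week 20, 176 genes (1.73%) rose and 76 (0.746%) fell, 252 (2.47%) in all, out of 1562 with an unadjusted p below 0.05. DEGs numbered 119 (1.17%), 81 higher (0.795%) and 38 lower (0.373%) in HFD mice, and in all but 1 of them (Mvd) the 4 HFD values did not overlap with the 4 CD values. Over all genes tested, the 4 HFD values lay above all CD values in 670 genes (6.58%) and below them in 256 (2.51%). The median log2 fold change of all genes tested was 0.07, so that more genes had a higher than a lower mean in HFD mice. Their exact share was not counted. Counts of list genes given below are to be read against the shares of all genes tested. Of the DEGs, 11 reached the expression filter through the 4 HFD mice alone and 3 through the 4 CD mice alone, so that these differ by the filter itself. Between any 2 of the 8 libraries the correlation over genes was 0.955 to 0.991, no 2 libraries held the same values, and 9794 to 10570 genes reached 1 FPKM. HFD518 stood apart in level, with the lowest of the 4 HFD values in 63.1% of the genes tested. Without HFD518 the number of DEGs rose to 220 of 10395 genes tested, and without CD502 it was 58 of 10374. Week-20 fits with mice left out asked for 1 FPKM in 3 or more libraries, so the genes tested differ from those of the main fit. Hepatocyte markers were abundant, with albumin (Alb) at 33878, 46057, 25188 and 32042 FPKM in the CD mice and 41064, 30572, 16734 and 23626 FPKM in the HFD mice. Among the 13 cell type lists, T and NK cell, B cell and dendritic cell markers were too low to be tested, with summed levels of at most 3.74 FPKM in a mouse, and the adipocyte genes Lep and Plin1 were at 0 in all 8 libraries.

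Genes of fat uptake and lipid droplets were, of all lists, the one with the most genes that rose in HFD mice. Of 27 such genes tested, 9 rose and none fell (Cd36, Mogat1, Pparg, Fabp2, Cidea, Cidec, Plin2, Plin4 and Fitm1), and the median log2 fold change of the list was 0.70. The share of all genes tested that rose was 1.73%. Cidea and Mogat1 reached the expression filter through the HFD mice alone. Cidea, which promotes the growth of lipid droplets and is known from brown fat, was at 0.10, 0.07, 0.06 and 0.06 FPKM in the CD mice and 18.6, 43.3, 35.7 and 20.04 FPKM in the HFD mice. It was nearly silent in each CD mouse and well expressed in each HFD mouse (log2 fold change 4.74, standard error 0.25, adjusted p = 3.9e-05). Cidec, the related droplet fusion protein known as FSP27, was at 0.67, 0.22, 1.06 and 1.90 FPKM in the CD mice and 33.7, 39.0, 67.6 and 12.7 FPKM in the HFD mice (log2 fold change 4.18, standard error 0.48, adjusted p = 0.0089). HFD517 carried the highest level and HFD518 the lowest of the HFD mice, yet the lowest stood well above every CD mouse.

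The fatty acid transporter Cd36 was at 11.8, 6.65, 5.94 and 8.93 FPKM in the CD mice and 89.7, 58.1, 87.6 and 38.7 FPKM in the HFD mice (log2 fold change 2.86, standard error 0.29, adjusted p = 0.0034). Mogat1, which makes diacylglycerol from monoacylglycerol, was at 0.92, 0.31, 0.27 and 0.51 FPKM in the CD mice and 5.45, 5.40, 4.0 and 4.03 FPKM in the HFD mice (log2 fold change 1.94, standard error 0.16, adjusted p = 6.0e-04), with little spread inside either group. Pparg, the nuclear receptor that is known to drive these genes and the Cide genes in fatty liver, was at 2.85, 1.84, 2.43 and 2.46 FPKM in the CD mice and 11.0, 10.6, 12.8 and 5.22 FPKM in the HFD mice (log2 fold change 1.63, standard error 0.23, adjusted p = 0.0094). All 3 were separate between the groups, with HFD518 the lowest HFD mouse for Cd36 and Pparg. The droplet coat genes came in graded amounts. Plin4 was at 2.19, 0.83, 2.27 and 4.72 FPKM in the CD mice and 18.3, 14.1, 14.7 and 11.2 FPKM in the HFD mice (log2 fold change 2.25, standard error 0.31, adjusted p = 0.01), and Plin2, by level the most abundant droplet coat gene here, was at 164, 134, 230.4 and 204 FPKM in the CD mice and 335, 287, 500.5 and 361 FPKM in the HFD mice (log2 fold change 1.01, standard error 0.20, adjusted p = 0.034). Plin3 was at 17.5, 20.2, 14.3 and 17.1 FPKM in the CD mice and 27.7, 24.6, 31.0 and 22.3 FPKM in the HFD mice and did not pass (log2 fold change 0.59, standard error 0.13, adjusted p = 0.051), and Plin5 reached 0.57 (adjusted p = 0.3).

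Fabp2, a fatty acid binding protein named for the intestine, was at 46.3, 36.6, 43.0 and 39.9 FPKM in the CD mice and 96.0, 81.7, 57.8 and 70.6 FPKM in the HFD mice (log2 fold change 0.85, standard error 0.15, adjusted p = 0.023), and Fitm1, which acts in droplet formation, was at 30.5, 14.2, 26.8 and 25.4 FPKM in the CD mice and 58.8, 65.7, 46.1 and 44.8 FPKM in the HFD mice (log2 fold change 1.15, standard error 0.22, adjusted p = 0.032). Fabp4, the adipocyte and macrophage fatty acid binding protein, was higher in every HFD mouse but spread widely, at 6.32, 6.74, 6.34 and 10.2 FPKM in the CD mice and 62.6, 20.6, 50.9 and 11.4 FPKM in the HFD mice, and did not pass (log2 fold change 1.89, standard error 0.50, adjusted p = 0.11). Of 4 further genes of the list, none passed. Fabp1 had a log2 fold change of 0.10, adjusted p = 0.84, the triglyceride synthases Dgat1 and Dgat2 had -0.21 (adjusted p = 0.37) and 0.14 (adjusted p = 0.67), and the lipase Pnpla2 had -0.05 (adjusted p = 0.97). The number of genes of the list that rose was 7 or 8 when any other single mouse was left out and 13 without HFD518. Cidea, Cidec, Cd36, Mogat1, Pparg and Plin4 passed in all 8 such fits, while Plin2 missed the threshold without CD501, CD502, CD507, HFD511 or HFD517 (adjusted p up to 0.1), Fabp2 without CD502, CD505, CD507 or HFD516 (adjusted p up to 0.068) and Fitm1 without CD505, CD507, HFD511, HFD516 or HFD517 (adjusted p up to 0.078).

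**Figure D1:**
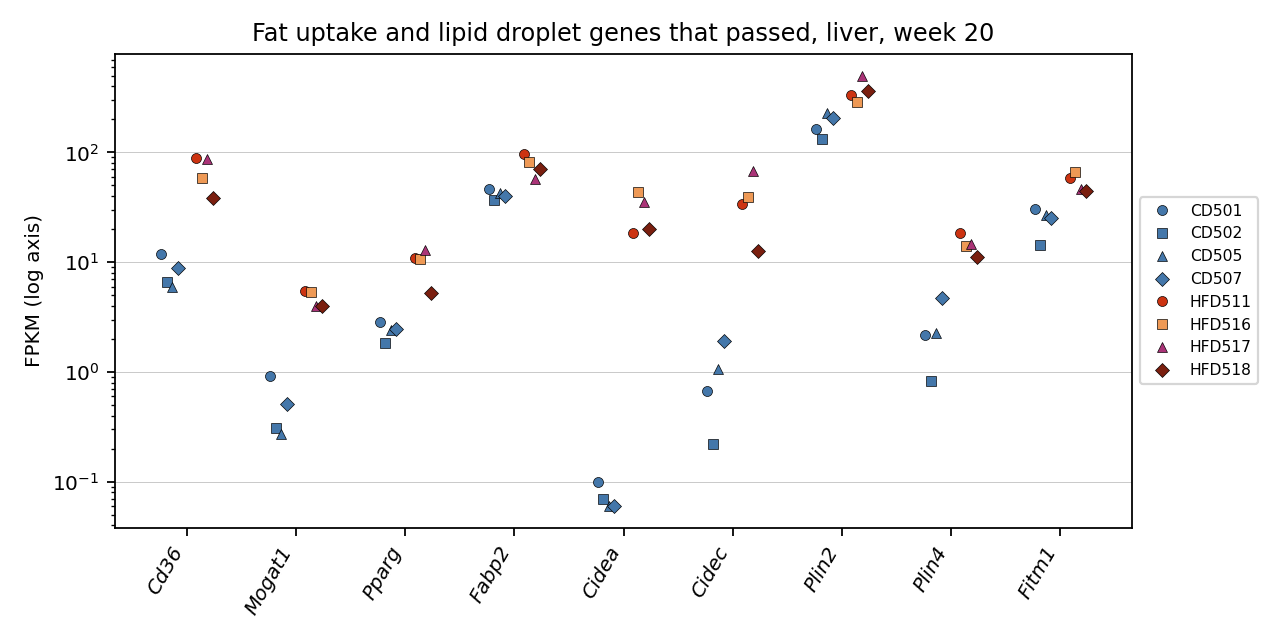
FPKM, on a log axis, of the 9 genes of fat uptake and lipid droplets that rose, in each of the 4 CD mice (blue) and 4 HFD mice (red shades) at week 20, 1 point per mouse. In each gene the 4 HFD points lie above the 4 CD points.

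Cfd, the serine protease of complement known as adipsin and best known from adipocytes, was the remaining fat-linked gene with a large rise, at 0.08, 0, 0.08 and 0.12 FPKM in the CD mice and 13.5, 7.57, 7.60 and 4.19 FPKM in the HFD mice (log2 fold change 3.01, standard error 0.25, adjusted p = 0.0011). It was the only adipocyte marker that reached the expression filter, through the HFD mice alone, and Adipoq was at most 0.03 FPKM in any of the 8 libraries. Clstn3, whose locus also yields a lipid droplet protein of adipocytes that a gene-level value cannot separate, was at 2.54, 1.81, 4.69 and 5.87 FPKM in the CD mice and 23.7, 23.1, 22.1 and 26.2 FPKM in the HFD mice (log2 fold change 2.48, standard error 0.25, adjusted p = 0.0026). Both genes passed with each mouse left out in turn.

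Genes of fatty acid oxidation, most of them targets of the nuclear receptor PPARA, moved less. Of 32 tested, 4 rose (against 1.73% of all genes tested) and none fell, with a median of 0.39. The enzymes of mitochondrial beta-oxidation themselves did not pass, for example Cpt1a (0.42, adjusted p = 0.55) and Acadm (0.60, adjusted p = 0.13). Those that rose were the peroxisomal enzyme Ehhadh (log2 fold change 0.89, standard error 0.16, adjusted p = 0.025), the mitochondrial acyl-CoA thioesterase Acot2, the pantetheinase Vnn1 and the hormone Fgf21. Acot2 was at 1.49, 1.30, 4.59 and 4.81 FPKM in the CD mice and 15.9, 10.3, 16.03 and 14.4 FPKM in the HFD mice (log2 fold change 2.02, standard error 0.33, adjusted p = 0.021). Vnn1 was at 12.8, 4.30, 26.7 and 16.7 FPKM in the CD mice and 80.7, 80.8, 92.1 and 69.0 FPKM in the HFD mice (log2 fold change 2.56, standard error 0.44, adjusted p = 0.03), about even among the HFD mice and uneven among the CD mice. Pdk4, which blocks glucose oxidation in favor of fat, was at 0.87, 1.30, 1.90 and 2.61 FPKM in the CD mice and 37.1, 4.70, 54.6 and 25.8 FPKM in the HFD mice, and with HFD516 close to the CD mice it did not pass (log2 fold change 3.20, standard error 0.67, adjusted p = 0.059). The classical PPARA targets Cyp4a10 and Cyp4a14 overlapped fully between the groups, at 46.7 to 429 FPKM in the CD mice and 89.3 to 502.3 FPKM in the HFD mice for Cyp4a10 (log2 fold change -0.07, standard error 0.82, adjusted p = 0.98). Ehhadh missed the threshold without CD501, CD502, CD505 or HFD516 (adjusted p up to 0.074), Vnn1 without CD501, CD507, HFD511, HFD516 or HFD517 (adjusted p up to 0.1) and Acot2 without HFD517 (adjusted p up to 0.062).

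Among secreted factors, Fgf21 and Gdf15 rose and Igfbp2 fell, of 22 tested (median 0.29). Fgf21, a fasting and stress hormone of the liver, was at 0.97, 0.75, 2.09 and 1.15 FPKM in the CD mice and 22.7, 8.76, 15.3 and 11.9 FPKM in the HFD mice (log2 fold change 2.76, standard error 0.27, adjusted p = 0.0025) and passed with any mouse left out. Gdf15, a stress hormone that acts on appetite through the hindbrain, was at 9.43, 13.4, 6.50 and 7.02 FPKM in the CD mice and 141, 34.7, 126 and 54.6 FPKM in the HFD mice (log2 fold change 2.99, standard error 0.46, adjusted p = 0.021), with HFD511 and HFD517 far above HFD516 and HFD518. Its call was lost without CD501, CD502, CD505 or CD507 (adjusted p up to 0.078). Igfbp2, an insulin-like growth factor binding protein, was at 293, 479, 492 and 369 FPKM in the CD mice and 81.0, 170.3, 70.9 and 162 FPKM in the HFD mice (log2 fold change -1.82, standard error 0.31, adjusted p = 0.026), without overlap, and missed the threshold without CD502, CD505 or CD507 (adjusted p up to 0.083). The matrix protein Sparc overlapped, at 10.4, 25.0, 18.8 and 21.2 FPKM in the CD mice and 36.0, 25.1, 46.8 and 19.2 FPKM in the HFD mice (log2 fold change 0.71, standard error 0.32, adjusted p = 0.34).

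The stress response list held 25 genes tested, of which 3 rose (Atf3, Gdf15 and Fgf21), against 1.73% of all genes tested, with a median of 0.27. The median was -0.02 without CD507, 0.14 without HFD517, 0.41 without HFD516, 0.43 without CD502 and 0.49 without CD501, and 0.76 without both CD501 and CD502. Atf3, a stress-induced transcription factor, was at 1.34, 0.88, 0.63 and 0.40 FPKM in the CD mice and 10.1, 6.01, 11.8 and 2.06 FPKM in the HFD mice (log2 fold change 2.06, standard error 0.42, adjusted p = 0.046), and it missed the threshold without CD501, CD502, CD505, CD507, HFD511, HFD516 or HFD517 (adjusted p up to 0.13). The chaperones of the endoplasmic reticulum did not separate the feeds. Hspa5, the main one, was at 701, 442, 253 and 162 FPKM in the CD mice and 377, 280.2, 515 and 482 FPKM in the HFD mice (log2 fold change 0.26, standard error 0.43, adjusted p = 0.85), with CD501 highest of all 8 mice and CD507 lowest. Atf4 and Ddit3 had log2 fold changes of -0.23 (adjusted p = 0.62) and -0.05 (adjusted p = 0.97).

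Cholesterol synthesis was the pathway with the most genes that fell. All 24 genes of the list had a lower mean in HFD mice, 9 fell and none rose, and in 13 every HFD value lay below every CD value. Among all genes tested, 0.746% fell and 2.51% had every HFD value below every CD value. The median log2 fold change was -1.14. Summed over the list, the level was 1230 to 1534 FPKM in the CD mice and 544 to 1075 FPKM in the HFD mice. The highest HFD sum belonged to HFD511. This mouse had the highest HFD value in 22 of the 24 genes (91.7%), against 39.2% of all genes tested.

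The promoters of 4 of the genes that fell are shown because the NF-Y box CCAAT, which is known to assist SREBP2 at genes of sterol synthesis, was found in each of them. The sequences are the 250 bases before the RefSeq gene start on GRCm38.p6, with CCAAT or its reverse complement ATTGG in capitals.
Tm7sf2, chr19:6067851-6068100, minus strand: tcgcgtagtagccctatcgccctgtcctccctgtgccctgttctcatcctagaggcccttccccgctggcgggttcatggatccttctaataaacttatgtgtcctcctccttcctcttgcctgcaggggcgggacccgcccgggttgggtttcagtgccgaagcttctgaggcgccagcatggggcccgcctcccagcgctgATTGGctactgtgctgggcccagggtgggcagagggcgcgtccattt
Pmvk, chr3:89454291-89454540, plus strand: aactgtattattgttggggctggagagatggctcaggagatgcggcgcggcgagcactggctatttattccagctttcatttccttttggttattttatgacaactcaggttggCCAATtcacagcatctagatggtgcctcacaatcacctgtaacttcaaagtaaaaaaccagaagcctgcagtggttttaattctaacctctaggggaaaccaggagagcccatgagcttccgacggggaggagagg
Nsdhl, chrX:72918271-72918520, plus strand: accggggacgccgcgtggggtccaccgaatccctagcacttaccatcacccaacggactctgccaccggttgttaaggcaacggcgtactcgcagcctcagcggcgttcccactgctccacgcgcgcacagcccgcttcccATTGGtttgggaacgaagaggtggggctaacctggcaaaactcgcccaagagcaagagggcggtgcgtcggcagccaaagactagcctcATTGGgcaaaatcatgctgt
Cyp51, chr5:4104698-4104947, minus strand: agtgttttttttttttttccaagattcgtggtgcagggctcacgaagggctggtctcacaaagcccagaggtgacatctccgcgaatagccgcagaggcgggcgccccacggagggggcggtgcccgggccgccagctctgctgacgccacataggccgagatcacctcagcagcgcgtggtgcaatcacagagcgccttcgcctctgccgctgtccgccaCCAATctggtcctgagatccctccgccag

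The match began 47 bases before the gene start in Tm7sf2, 136 in Pmvk, 109 and 20 in Nsdhl and 29 in Cyp51, and a second RefSeq start of Pmvk had no match. CCAAT on either strand was present in 16 of the 16 list genes that had a RefSeq promoter, including 7 of 7 that fell, against 37.5% of all 27025 genes with a promoter and 40.7% of the 8228 that were also tested. The letters TCACNCCAC, a form of the sterol element, were present in 1 of the 16 (Hmgcs1), and in 1.22% of all promoters. A match of letters is a description of the sequence, and no binding was measured in these livers.

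Early in the pathway, the synthase Hmgcs1 did not pass (log2 fold change -1.05, standard error 0.46, adjusted p = 0.32). The mevalonate kinases below it fell. Mvk was at 13.3, 16.2, 19.2 and 14.0 FPKM in the CD mice and 11.5, 4.41, 6.33 and 5.59 FPKM in the HFD mice (log2 fold change -1.13, standard error 0.24, adjusted p = 0.041), and Pmvk, which adds the second phosphate, was at 20.4, 27.3, 24.4 and 23.6 FPKM in the CD mice and 11.5, 7.77, 11.0 and 11.0 FPKM in the HFD mice (log2 fold change -1.14, standard error 0.14, adjusted p = 0.005). Mvd, the decarboxylase that follows, was at 17.0, 19.4, 17.8 and 8.68 FPKM in the CD mice and 8.71, 2.68, 3.38 and 3.37 FPKM in the HFD mice (log2 fold change -1.65, standard error 0.34, adjusted p = 0.044), and it was the single DEG whose groups touched, at CD507 and HFD511. Fdps, the farnesyl diphosphate synthase, was at 171, 212.8, 179.8 and 150.0 FPKM in the CD mice and 100.6, 27.3, 39.7 and 36.8 FPKM in the HFD mice (log2 fold change -1.96, standard error 0.35, adjusted p = 0.032). The HFD mice other than HFD511 were at 27.3 to 39.7 FPKM, while no CD mouse was below 150.0 FPKM.

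On the sterol branch, the largest difference was that of squalene epoxidase, Sqle, at 22.0, 32.8, 22.3 and 24.6 FPKM in the CD mice and 12.9, 1.20, 2.34 and 1.33 FPKM in the HFD mice. All HFD values were below all CD values, HFD511 was far above the other HFD mice, and the gene did not pass (log2 fold change -2.73, standard error 0.56, adjusted p = 0.054). Cyp51, the lanosterol demethylase, was at 27.3, 31.1, 38.6 and 31.6 FPKM in the CD mice and 18.3, 5.14, 7.37 and 5.98 FPKM in the HFD mice (log2 fold change -1.85, standard error 0.33, adjusted p = 0.027). Nsdhl, which acts in the removal of methyl groups from the ring, was at 21.9, 25.3, 30.3 and 26.1 FPKM in the CD mice and 13.9, 4.57, 5.56 and 4.35 FPKM in the HFD mice (log2 fold change -1.86, standard error 0.30, adjusted p = 0.02). Tm7sf2, a sterol reductase, was at 82.0, 98.8, 76.2 and 105.8 FPKM in the CD mice and 26.4, 18.9, 15.2 and 27.9 FPKM in the HFD mice (log2 fold change -2.02, standard error 0.19, adjusted p = 0.0018), and in this gene HFD511 was not apart. Dhcr7, which reduces the last precursor to cholesterol, was at 26.5, 44.8, 30.8 and 31.1 FPKM in the CD mice and 20.2, 8.59, 12.7 and 10.8 FPKM in the HFD mice (log2 fold change -1.32, standard error 0.24, adjusted p = 0.027).

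The count of list genes that fell depended on scaling and on single mice. With libraries scaled by their median ratio factors 14 fell, and with FPKM rescaled to the same sum (TPM) 7 fell. The counts that follow are for mice left out. It was 20 without HFD511 and 3 without CD502, CD505, HFD516 or HFD517, and it was 4 without CD507, 5 without CD501 and 10 without HFD518. Pmvk and Tm7sf2 passed in all of these fits. Fdps missed the threshold without CD501, CD502, CD505, CD507, HFD516 or HFD517 (adjusted p up to 0.097), Cyp51 without CD501, CD502, CD505, CD507, HFD516 or HFD517 (adjusted p up to 0.092), Nsdhl without CD502, CD505, CD507, HFD516 or HFD517 (adjusted p up to 0.07), Dhcr7 without CD502, CD505, CD507, HFD516 or HFD517 (adjusted p up to 0.077), Mvd without CD501, CD502, CD505, HFD516 or HFD517 (adjusted p up to 0.13) and Mvk without CD501, CD502, CD505, CD507, HFD516, HFD517 or HFD518 (adjusted p up to 0.12).

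**Figure D2:**
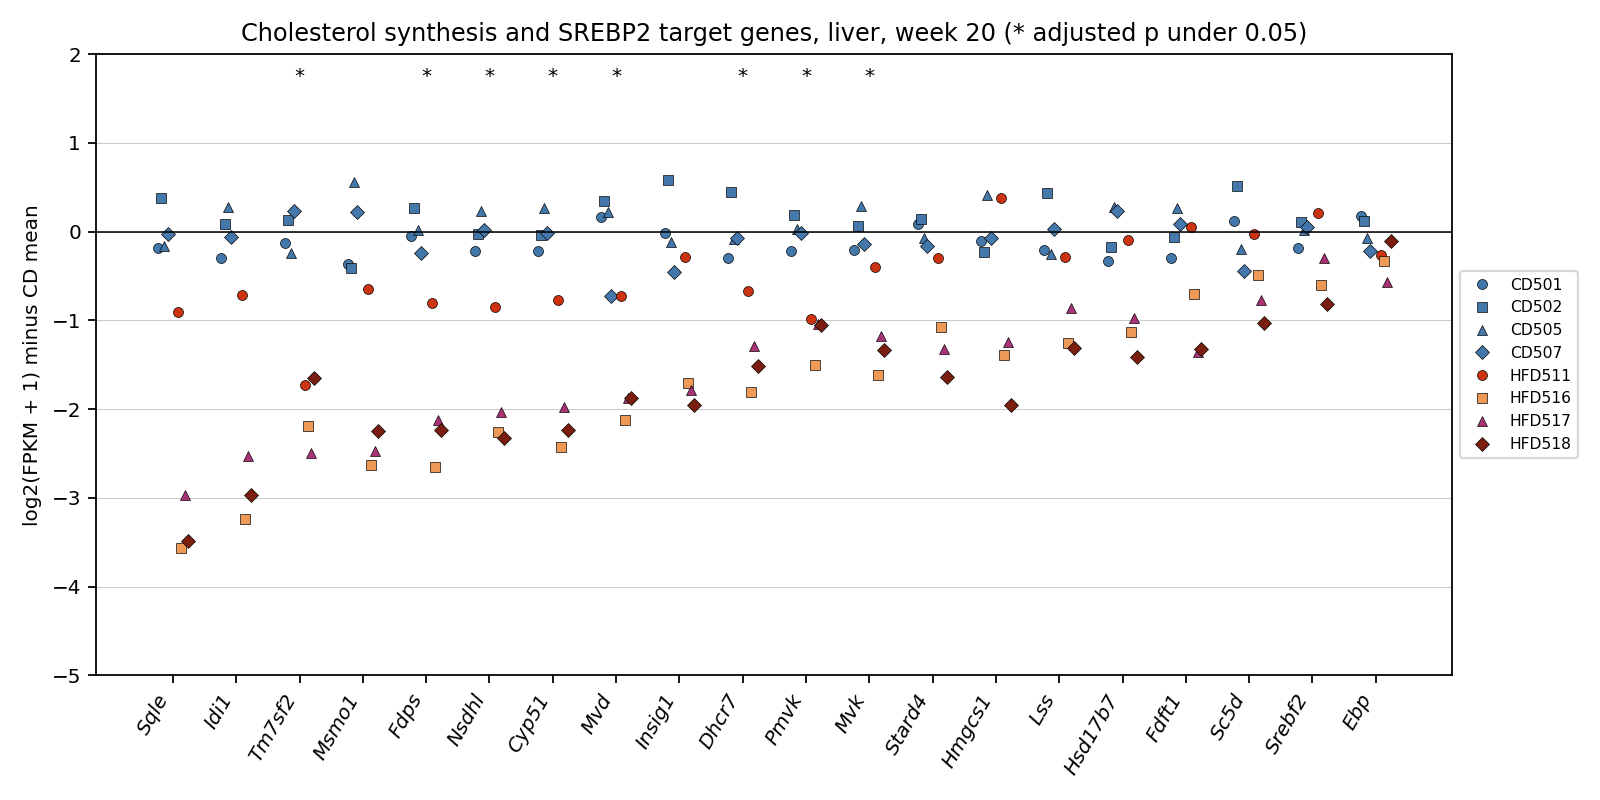
log2(FPKM + 1) of 20 genes of the cholesterol list minus the mean of the 4 CD mice, in the 4 CD mice (blue) and 4 HFD mice (red shades) at week 20, with 1 point per mouse, genes ordered by log2 fold change and a star at each gene that fell. HFD511 is the highest HFD mouse in each gene plotted except Tm7sf2 and Ebp, and for Fdps it was at 100.6 FPKM against 27.3 to 39.7 FPKM in the other HFD mice.

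The CD level of these genes also varied between weeks. The summed level of the list was 494 to 780 FPKM in the CD mice of week 16 and 751 to 944 FPKM in those of week 24, below each of the week-20 CD mice. It was 954 to 1232 FPKM at week 4 and 778 to 1464 FPKM at week 8, which overlap with week 20, and 528 to 992 FPKM at week 12. In HFD mice the sums were 526 to 994 FPKM at week 16 and 532 to 862 FPKM at week 24, close to those of week 20. The mean of the CD mice was higher at week 20 than at each of the 5 other weeks in 16 of the 24 genes (66.7%), against 11.6% of all genes tested. For Fdps, the week-16 values were 28.9, 14.5, 55.8 and 16.2 FPKM in the CD mice and 19.1, 34.5, 109.9 and 45.9 FPKM in the HFD mice, and the week-24 values were 31.1, 103.6, 87.9 and 90.9 FPKM in the CD mice and 29.6, 78.6, 23.9 and 29.8 FPKM in the HFD mice.

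Fatty acid synthesis genes were lower on average in all 19 cases tested (median -0.63), but only 3 fell, Acss2, Slc25a1 and Fads1. The share of all genes tested that fell was 0.746%. The median was -0.30 without HFD518 and -0.29 without both HFD517 and HFD518, and without both CD501 and CD502 it was -0.27 and none fell. Acss2, the acetyl-CoA synthetase of the cytosol, was at 45.2, 56.5, 43.5 and 49.8 FPKM in the CD mice and 30.7, 23.6, 18.7 and 17.1 FPKM in the HFD mice (log2 fold change -1.11, standard error 0.17, adjusted p = 0.013), and it passed with any mouse left out. The citrate carrier Slc25a1 and the desaturase Fads1 changed by -0.54 (adjusted p = 0.032) and -0.63 (adjusted p = 0.042). Slc25a1 missed the threshold without CD501, CD502, CD505, CD507, HFD516 or HFD517 (adjusted p up to 0.095), and Fads1 without CD501, CD502, CD505, CD507, HFD516 or HFD517 (adjusted p up to 0.11). Fasn, the fatty acid synthase, was at 61.8, 91.5, 18.2 and 16.2 FPKM in the CD mice and 29.1, 12.6, 17.3 and 6.63 FPKM in the HFD mice (log2 fold change -1.27, standard error 0.66, adjusted p = 0.43). Its CD mice were uneven, with CD501 and CD502 above CD505 and CD507, and the same order was seen for Acly, Elovl6 and Srebf1. Scd1, the stearoyl-CoA desaturase, was at 360.4, 589, 321 and 2653 FPKM in the CD mice and 139.9, 89.5, 106.1 and 99.2 FPKM in the HFD mice, without overlap. It did not pass (log2 fold change -2.60, standard error 0.64, adjusted p = 0.092), with CD507 far above the other CD mice.

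In bile acid metabolism, 1 of 17 genes fell, against 0.746% of all genes tested, and none rose (median -0.51). Cyp27a1, the sterol 27-hydroxylase, was at 232, 261, 237 and 232 FPKM in the CD mice and 193, 178, 148 and 159.97 FPKM in the HFD mice (log2 fold change -0.51, standard error 0.11, adjusted p = 0.043), and the call was lost without CD501, CD502, CD505, CD507, HFD516 or HFD517 (adjusted p up to 0.12). Cyp7a1, the rate-limiting enzyme of bile acid synthesis, was at 10.3, 29.7, 37.9 and 14.4 FPKM in the CD mice and 31.7, 15.8, 1.40 and 6.29 FPKM in the HFD mice, with broad overlap (log2 fold change -1.11, standard error 0.83, adjusted p = 0.61). Cyp7b1 was lower in every HFD mouse, at 103.96, 91.8, 158 and 141 FPKM in the CD mice and 32.7, 56.9, 62.6 and 87.2 FPKM in the HFD mice, and did not pass (log2 fold change -1.08, standard error 0.29, adjusted p = 0.094). No gene of cholesterol transport rose or fell among 15 tested (median 0.13).

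Apolipoprotein genes changed little, with 1 of 11 that rose, against 1.73% of all genes tested (median -0.01). Apoc2, the cofactor of lipoprotein lipase, was at 276, 343, 307.2 and 301 FPKM in the CD mice and 495, 423, 505.2 and 419 FPKM in the HFD mice (log2 fold change 0.58, standard error 0.11, adjusted p = 0.029). Each other fit with 7 mice lost this call except that without HFD518, with an adjusted p of up to 0.096. Apoa4, which is known to be induced in fatty liver, was at 534, 487, 338 and 273 FPKM in the CD mice and 2410.1, 1290.1, 1825 and 599.9 FPKM in the HFD mice and did not pass (log2 fold change 1.78, standard error 0.42, adjusted p = 0.071) although every HFD mouse was above every CD mouse.

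Neither glucose metabolism (20 genes, none passed, median -0.01) nor insulin signaling (18 genes, Igfbp2 alone fell, median 0.15) set the groups apart as lists. Pck1, the key enzyme of gluconeogenesis, was at 1013, 1104, 1291 and 2138 FPKM in the CD mice and 1054, 609, 654 and 743 FPKM in the HFD mice (log2 fold change -0.83, standard error 0.25, adjusted p = 0.12). The insulin receptor substrates Irs1 and Irs2 had log2 fold changes of -0.24 (adjusted p = 0.57) and 0.24 (adjusted p = 0.68).

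Of 23 cytochrome P450 and related genes of drug and steroid metabolism, 1 rose and 3 fell (median -0.67), against 1.73% and 0.746% of all genes tested. The median was -0.43 over 26 genes without CD505 and -0.39 over 25 genes without HFD517. Cyp2b9, a P450 that is female-specific in adult mouse liver, was at 3.67, 0.60, 0.10 and 0.04 FPKM in the CD mice and 124, 54.3, 19.6 and 47.0 FPKM in the HFD mice, from nearly none in CD507 to 124 FPKM in HFD511 (log2 fold change 4.90, standard error 0.66, adjusted p = 0.015). Cyp2c40 was at 11.2, 5.58, 7.96 and 10.8 FPKM in the CD mice and 0.87, 0.21, 0.52 and 0.50 FPKM in the HFD mice (log2 fold change -2.67, standard error 0.21, adjusted p = 6.0e-04) and Cyp2c69 at 7.10, 2.2, 3.74 and 4.11 FPKM in the CD mice and 0.38, 0.12, 0.08 and 0.11 FPKM in the HFD mice (log2 fold change -2.10, standard error 0.24, adjusted p = 0.0045), both without overlap and both called in all fits with 7 mice, and both reached the expression filter through the CD mice alone. Cyp2c, Cyp2b, Mup and Ugt2b genes have close copies in the genome, so reads can be split among them and their single values are uncertain. Cyp2f2 was at 785, 756, 589 and 711 FPKM in the CD mice and 281, 539, 429 and 382 FPKM in the HFD mice (log2 fold change -0.83, standard error 0.19, adjusted p = 0.047). The abundant Cyp2e1 overlapped (0.01, adjusted p = 1.00), and Cyp3a11 was at 751, 447, 489 and 595 FPKM in the CD mice and 586, 173, 139 and 99.7 FPKM in the HFD mice and did not pass (log2 fold change -1.52, standard error 0.51, adjusted p = 0.19). Cyp2b9 missed the threshold without CD502, CD505, CD507 or HFD516 (adjusted p up to 0.062), and Cyp2f2 without CD501, CD502, CD505, CD507, HFD511, HFD517 or HFD518 (adjusted p up to 0.13).

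Genes that are higher in male than in female liver had lower means as a list, with 4 of 18 that fell (Hsd3b5, Ugt2b1, Ugt2b38 and Selenbp2), none that rose and a median of -1.09. The share of all genes tested that fell was 0.746%. Hsd3b5, a male-specific steroid dehydrogenase, was at 126, 123, 102 and 53.8 FPKM in the CD mice and 0.60, 10.6, 3.38 and 15.3 FPKM in the HFD mice (log2 fold change -4.01, standard error 0.73, adjusted p = 0.041). Selenbp2 was at 389, 391, 483 and 287 FPKM in the CD mice and 26.4, 95.3, 69.6 and 117 FPKM in the HFD mice (log2 fold change -2.48, standard error 0.42, adjusted p = 0.027). In both, HFD511 was the lowest mouse. It was the lowest HFD mouse in 14 of the 18 genes, against 12% of all genes tested. Ugt2b1 was at 160.4, 113.1, 169.9 and 158 FPKM in the CD mice and 50.6, 85.5, 56.0 and 54.5 FPKM in the HFD mice (log2 fold change -1.29, standard error 0.18, adjusted p = 0.0094) and Ugt2b38 at 5.70, 4.99, 4.89 and 6.29 FPKM in the CD mice and 0.14, 1.30, 2.18 and 0.60 FPKM in the HFD mice (log2 fold change -1.75, standard error 0.27, adjusted p = 0.015). Major urinary protein genes spread over a wide range in HFD mice, with Mup7 at 12323, 5316, 18209 and 13602 FPKM in the CD mice and 73.7, 5473, 1831 and 6906 FPKM in the HFD mice (log2 fold change -2.90, standard error 1.42, adjusted p = 0.4), while Mup20 reached 0.30, adjusted p = 0.75.

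Of 18 female-biased genes only 6 could be tested, of which Cyp2b9 rose and Cyp2c40, Cyp2c69 and Atp6v0d2 fell, with a median of -0.07. The sign of this median changed with mice left out, but so did the genes tested. The median was 0.89 to 1.02 over 8 genes with any CD mouse left out. It was 0.65 without HFD517 and 0.74 without HFD518, over 7 genes each. Over 6 genes it was -0.18 without HFD511 and -0.12 without HFD516. A change by mouse and a change by gene set are therefore mixed in these medians. Summed over all 18 genes the level was 14.7 to 28.6 FPKM in CD mice and 30.4 to 167 FPKM in HFD mice, without overlap. Cyp2b9 made up most of the sum in each HFD mouse, and the sums of the other genes overlapped between the groups. Of growth hormone signaling genes, whose pulses set the sex difference of the liver, Stat5a alone rose among 9 tested, at 2.85, 2.95, 2.71 and 3.08 FPKM in the CD mice and 5.64, 6.20, 7.52 and 5.73 FPKM in the HFD mice (log2 fold change 0.89, standard error 0.11, adjusted p = 0.0067). The growth hormone receptor Ghr (-0.14, adjusted p = 0.66) and Igf1 (-0.28, adjusted p = 0.23) did not pass. Ugt2b1 and Stat5a passed in all fits with 7 mice. Hsd3b5 missed the threshold without CD501, CD502, CD505, CD507, HFD516 or HFD517 (adjusted p up to 0.13), Selenbp2 without CD501, CD502, CD505, CD507, HFD516 or HFD517 (adjusted p up to 0.097), Ugt2b38 without CD507 (adjusted p up to 0.051) and Atp6v0d2 without CD502, CD505, CD507, HFD511 or HFD516 (adjusted p up to 0.13).

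In retinoid metabolism (14 genes, median 0.08), 1 rose and 2 fell. Cyp26a1, the retinoic acid hydroxylase and a direct target of retinoic acid receptors, was at 9.40, 12.5, 9.35 and 16.8 FPKM in the CD mice and 0.67, 1.76, 0.47 and 1.66 FPKM in the HFD mice (log2 fold change -2.62, standard error 0.25, adjusted p = 0.002), and the call held with any mouse left out. Rdh11, a retinal reductase, was at 16.02, 19.9, 10.4 and 10.8 FPKM in the CD mice and 8.20, 4.0, 5.49 and 3.65 FPKM in the HFD mice (log2 fold change -1.28, standard error 0.26, adjusted p = 0.036), and Rdh9 was at 19.6, 22.4, 26.0 and 25.0 FPKM in the CD mice and 60.1, 44.4, 36.0 and 38.2 FPKM in the HFD mice (log2 fold change 0.89, standard error 0.16, adjusted p = 0.024). Rdh11 missed the threshold without CD501, CD502, CD505, CD507, HFD516 or HFD517 (adjusted p up to 0.11), and Rdh9 without CD501, CD502, CD505, CD507 or HFD516 (adjusted p up to 0.072). Among glutathione and NRF2 genes (22, median -0.12), sulfiredoxin, Srxn1, rose at 10.7, 10.6, 10.3 and 9.34 FPKM in the CD mice and 21.6, 30.2, 28.3 and 13.2 FPKM in the HFD mice (log2 fold change 1.05, standard error 0.22, adjusted p = 0.04). The transferases Gsta2 (log2 fold change -1.62, standard error 0.34, adjusted p = 0.045) and Gstm6 (log2 fold change -1.07, standard error 0.19, adjusted p = 0.022) fell, and both belong to families of close copies. Srxn1 missed the threshold without CD501, CD502, CD505, CD507, HFD511, HFD516 or HFD517 (adjusted p up to 0.11), Gsta2 without CD501, CD502, CD505, CD507, HFD511 or HFD517 (adjusted p up to 0.13) and Gstm6 without CD502, HFD516 or HFD517 (adjusted p up to 0.065).

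Enzymes of amino acid breakdown and the urea cycle had a lower mean in HFD mice in 22 of 23 genes, with a median of -0.67 against 0.07 over all genes tested. Of the 23, 6 fell (Cps1, Arg1, Hal, Got1, Gnmt and Gls2), against 0.746% of all genes tested. The 9 hepatocyte markers also had lower means in HFD mice, with a median of -0.28, and 1 of them fell, which was Cps1, a member of both lists. Their part in this result was not tested. Cps1, which fixes ammonia in the first step of the urea cycle, was at 567, 579, 341 and 479.6 FPKM in the CD mice and 264, 289, 186 and 227 FPKM in the HFD mice (log2 fold change -1.01, standard error 0.19, adjusted p = 0.027). Arg1, its last enzyme, was at 734, 737, 653 and 798 FPKM in the CD mice and 500.9, 463, 422 and 514 FPKM in the HFD mice (log2 fold change -0.62, standard error 0.11, adjusted p = 0.022). Between them, Ass1 (-0.81, adjusted p = 0.054), Asl (-0.63, adjusted p = 0.092) and Otc (-0.56, adjusted p = 0.089) did not pass, although the 4 HFD values lay below the 4 CD values in each.

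Glycine methyltransferase, Gnmt, was at 1737, 1477, 1419.7 and 1726 FPKM in the CD mice and 724, 694, 404 and 839 FPKM in the HFD mice (log2 fold change -1.30, standard error 0.21, adjusted p = 0.015). Histidine ammonia lyase, Hal, was at 167, 151, 103.4 and 131 FPKM in the CD mice and 72.1, 68.9, 51.6 and 59.8 FPKM in the HFD mice (log2 fold change -1.11, standard error 0.16, adjusted p = 0.01), and glutaminase 2, Gls2, at 159, 132, 128 and 168 FPKM in the CD mice and 83.7, 109.9, 75.3 and 99.2 FPKM in the HFD mice (log2 fold change -0.67, standard error 0.14, adjusted p = 0.041). Across the list HFD517 was the lowest HFD mouse in 17 of 23 genes, and it was the lowest in 7 of the 9 hepatocyte markers. Over all genes tested it was the lowest in 12.1%. Gpt2, the mitochondrial alanine transaminase, was the gene with a higher mean (0.02, adjusted p = 0.98). Leaving out 1 mouse gave 2 genes that fell (without CD501, CD502 or CD507) to 9 (without HFD518), and 3 without HFD517 and 4 without HFD516. Hal and Gnmt passed in all of these fits, Cps1 missed the threshold without CD501, CD502, CD507 or HFD517 (adjusted p up to 0.081), Arg1 without CD501, CD502, CD507 or HFD516 (adjusted p up to 0.069), Gls2 without CD501, CD502, CD505, CD507, HFD511 or HFD517 (adjusted p up to 0.12) and Got1 without CD501, CD502, CD505, CD507, HFD516 or HFD517 (adjusted p up to 0.14).

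**Figure D3:**
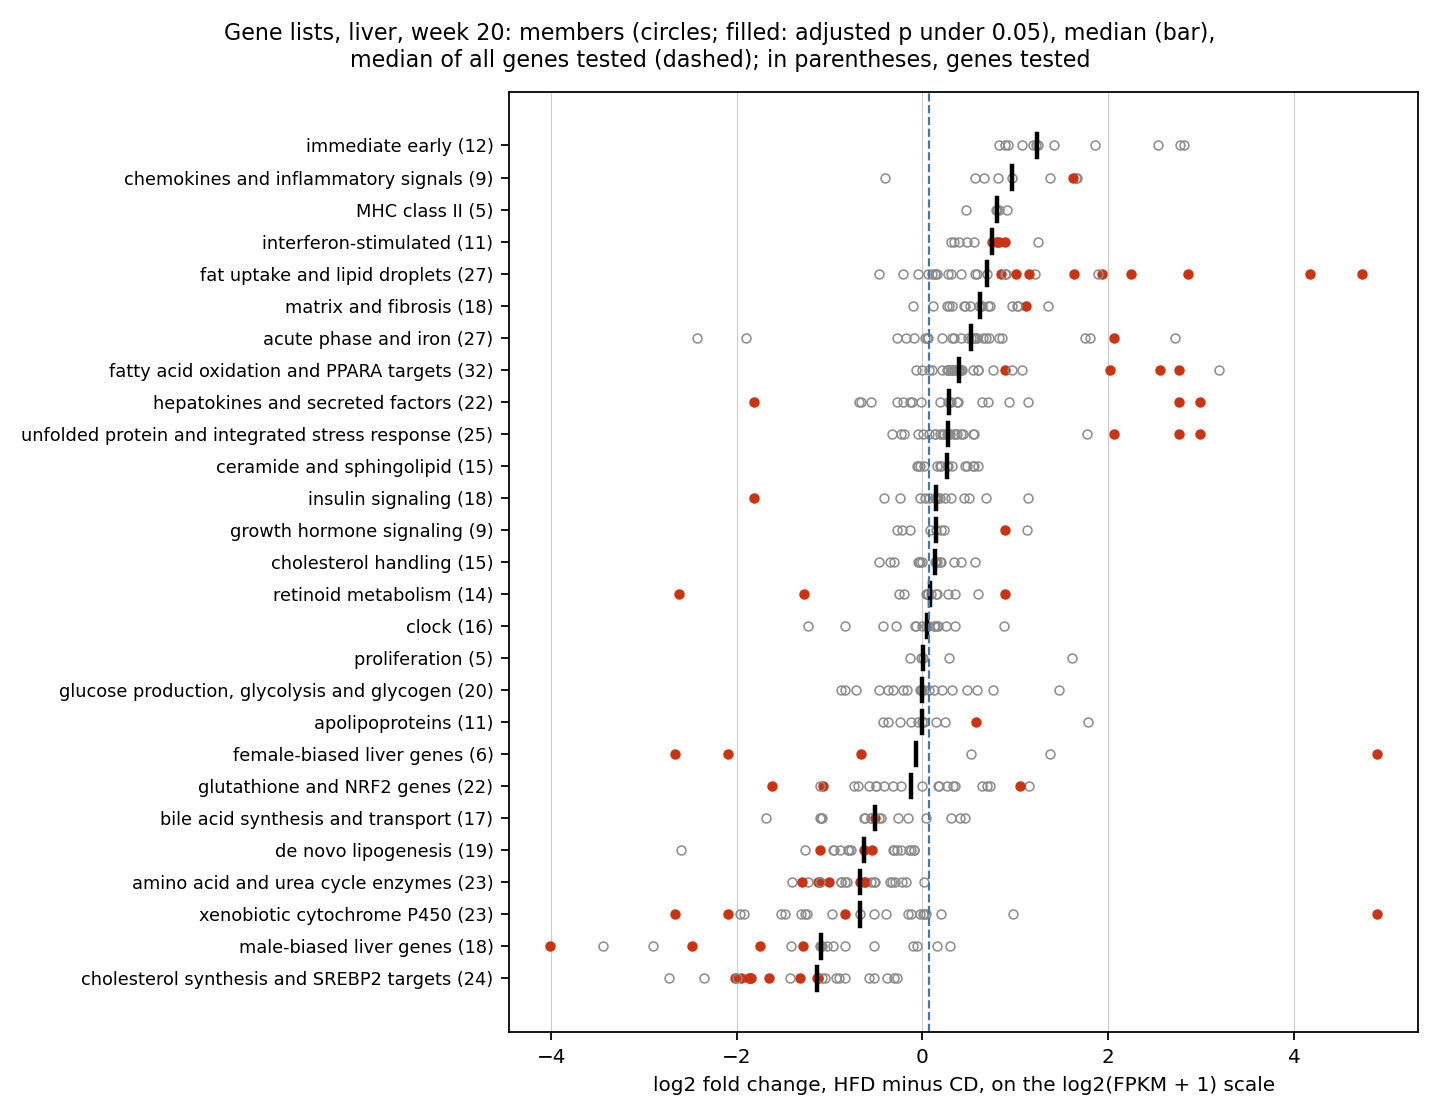
Log2 fold change (HFD minus CD, week 20) of the members of each pathway list with at least 5 genes tested, as circles that are filled where the adjusted p was below 0.05, with a bar at the list median and a dashed line at the median of all genes tested, 0.07. The list medians run from -1.14 for cholesterol synthesis to 1.23 for immediate early genes, and fat uptake and droplets lie at 0.70.

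Some macrophage genes rose. Of 11 Kupffer cell markers, 5 rose (Cd5l, Adgre1, C1qa, C1qb and C1qc), against 1.73% of all genes tested, and none fell, with a median of 0.39. The summed level of the 11 was 180 to 216 FPKM in CD mice and 283 to 363 FPKM in HFD mice. Adgre1, which codes for the macrophage antigen F4/80, was at 2.42, 2.60, 2.29 and 3.19 FPKM in the CD mice and 6.0, 5.60, 8.70 and 5.01 FPKM in the HFD mice (log2 fold change 1., standard error 0.16, adjusted p = 0.014). C1qb, a subunit of the complement starter C1q, was at 34.2, 34.1, 34.1 and 38.4 FPKM in the CD mice and 57.8, 59.0, 87.8 and 57.2 FPKM in the HFD mice (log2 fold change 0.85, standard error 0.14, adjusted p = 0.016), and C1qc, its partner, at 30.9, 31.1, 31.6 and 35.0 FPKM in the CD mice and 54.5, 52.9, 71.4 and 49.8 FPKM in the HFD mice (log2 fold change 0.80, standard error 0.12, adjusted p = 0.013). The other 6 markers of the list did not pass, and 10 of the 11 had a higher mean in HFD mice. Clec4f was at 25.2, 21.3, 20.9 and 27.96 FPKM in the CD mice and 31.6, 33.5, 25.3 and 32.2 FPKM in the HFD mice (log2 fold change 0.35, standard error 0.13, adjusted p = 0.21), and Vsig4 (0.39, adjusted p = 0.082), Timd4 (0.10, adjusted p = 0.87), Marco (0.37, adjusted p = 0.72) and Cd163 (-0.35, adjusted p = 0.43) did not pass either. In these bulk samples, more cells of a type and more RNA per cell cannot be told apart.

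Markers of recruited and lipid-laden macrophages were at 45.0 to 65.6 FPKM in sum in CD mice and 72.6 to 424 FPKM in HFD mice. Of 7 tested, Ly6c2 and Cd68 rose, against 1.73% of all genes tested, with a list median of 1.26. HFD517 was the highest HFD mouse in all 7, against 38% of all genes tested. Ly6c2 reached the expression filter through the HFD mice alone, and without the filter 1 of 12 genes rose. Ly6c2, a monocyte surface marker, was at 0.66, 0.27, 0 and 0.29 FPKM in the CD mice and 1.57, 2.22, 2.37 and 1.45 FPKM in the HFD mice (log2 fold change 1.16, standard error 0.17, adjusted p = 0.0094), and Cd68, a lysosomal protein of macrophages, at 6.08, 6.54, 5.40 and 6.30 FPKM in the CD mice and 13.7, 17.7, 27.7 and 9.54 FPKM in the HFD mice (log2 fold change 1.26, standard error 0.26, adjusted p = 0.039). Trem2, the lipid receptor that names these cells, was at 0.62, 2.18, 1.26 and 1.18 FPKM in the CD mice and 4.02, 4.93, 13.8 and 2.61 FPKM in the HFD mice and did not pass (log2 fold change 1.49, standard error 0.41, adjusted p = 0.11). Spp1, osteopontin, was at 21.7, 24.4, 30.1 and 30.8 FPKM in the CD mice and 32.7, 30.8, 218 and 34.8 FPKM in the HFD mice (log2 fold change 0.97, standard error 0.62, adjusted p = 0.54), and its mean in HFD mice rests on HFD517. Without HFD518, 8 of the 10 genes of this list then tested rose, and the larger number tested is part of this count. Without CD501, CD502, CD505 or CD507, 1 of 10 rose, and without HFD511 or HFD516, 1 of 7. Adgre1, C1qc and Ly6c2 passed in all such fits, C1qb missed the threshold without CD502 or CD505 (adjusted p up to 0.058), Cd5l without CD501, CD502, CD505, HFD516 or HFD517 (adjusted p up to 0.12), C1qa without CD501, CD502, CD505 or CD507 (adjusted p up to 0.063) and Cd68 without CD501, CD502, CD505, CD507, HFD511 or HFD516 (adjusted p up to 0.11). Kupffer markers that rose numbered 2 without CD502 or CD505, 3 without CD501 and 0 without both CD501 and CD502. In the fit of all 12 liver groups 1 Kupffer marker rose, while over all genes the number that rose was 664.

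Further genes that macrophages and other myeloid cells express were DEGs and are named here after their values were seen. They were Tyrobp (1.04, adjusted p = 0.022), Ctss (1.09, adjusted p = 0.036), Mpeg1 (1.1, adjusted p = 0.033), Fcer1g (1.01, adjusted p = 0.032), Spi1 (1., adjusted p = 0.034) and Clec7a (1.47, adjusted p = 0.036), all higher in every HFD mouse. Each of these 6 missed the threshold without CD501, CD505, CD507 or HFD516, and with any mouse left out the highest adjusted p ranged from 0.073 to 0.11. Lgals1, galectin-1, was at 17.0, 18.2, 14.5 and 13.1 FPKM in the CD mice and 125, 78.1, 115 and 54.3 FPKM in the HFD mice (log2 fold change 2.43, standard error 0.24, adjusted p = 0.0025), and it passed with any mouse left out. Hexa, a lysosomal hexosaminidase, was at 23.9, 27.1, 22.8 and 23.0 FPKM in the CD mice and 57.6, 49.4, 65.7 and 39.9 FPKM in the HFD mice (log2 fold change 1.08, standard error 0.15, adjusted p = 0.0089).

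Inflammatory and interferon genes moved in part. Among interferon-stimulated genes, 4 of 11 rose (Ifit3, Isg15, Usp18 and Gbp2), against 1.73% of all genes tested, with a median of 0.75. Isg15 was at 9.0, 10.2, 7.91 and 7.13 FPKM in the CD mice and 15.0, 17.0, 16.1 and 12.3 FPKM in the HFD mice (log2 fold change 0.75, standard error 0.14, adjusted p = 0.022). None of these 4 calls survived the removal of CD501, CD505, CD507, HFD516 or HFD517, with adjusted p of up to 0.077 for Isg15. Of 9 chemokine and inflammatory genes, Tlr2, a receptor for bacterial lipoproteins, rose at 0.97, 1.17, 0.69 and 0.83 FPKM in the CD mice and 1.77, 5.21, 7.42 and 7.18 FPKM in the HFD mice (log2 fold change 1.62, standard error 0.32, adjusted p = 0.038), and missed the threshold without CD501, CD502, CD505, CD507, HFD516 or HFD517 (adjusted p up to 0.11). The chemokine Ccl2 was at 0.77, 0.99, 1.77 and 0.05 FPKM in the CD mice and 2.67, 8.86, 11.8 and 1.26 FPKM in the HFD mice (log2 fold change 1.67, standard error 0.58, adjusted p = 0.21). MHC class II genes had a median of 0.80 over 5 genes and none passed, with Cd74 at 46.0, 41.6, 36.3 and 29.3 FPKM in the CD mice and 85.8, 66.9, 102.6 and 44.8 FPKM in the HFD mice (log2 fold change 0.91, standard error 0.24, adjusted p = 0.091). Without HFD518, 4 of the 5 passed.

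Matrix genes had a median of 0.62 over 18 genes and Col4a1, a basement membrane collagen, alone rose (log2 fold change 1.12, standard error 0.23, adjusted p = 0.036), which was lost without CD501, CD502, CD505, CD507, HFD511 or HFD516 (adjusted p up to 0.1). The fibrillar collagen Col1a1 was at 0.96, 12.3, 4.34 and 3.56 FPKM in the CD mice and 14.6, 6.49, 35.0 and 5.30 FPKM in the HFD mice (log2 fold change 1.35, standard error 0.73, adjusted p = 0.45), with the highest value in HFD517 and CD502 above 2 of the HFD mice. Stellate cell markers (8 genes, median 0.26) and endothelial markers (9 genes, median 0.25) held no gene that passed. Neutrophil markers were at 4.02 to 8.82 FPKM in sum in CD mice and 4.27 to 33.0 FPKM in HFD mice, with none of 3 that passed.

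**Figure D4:**
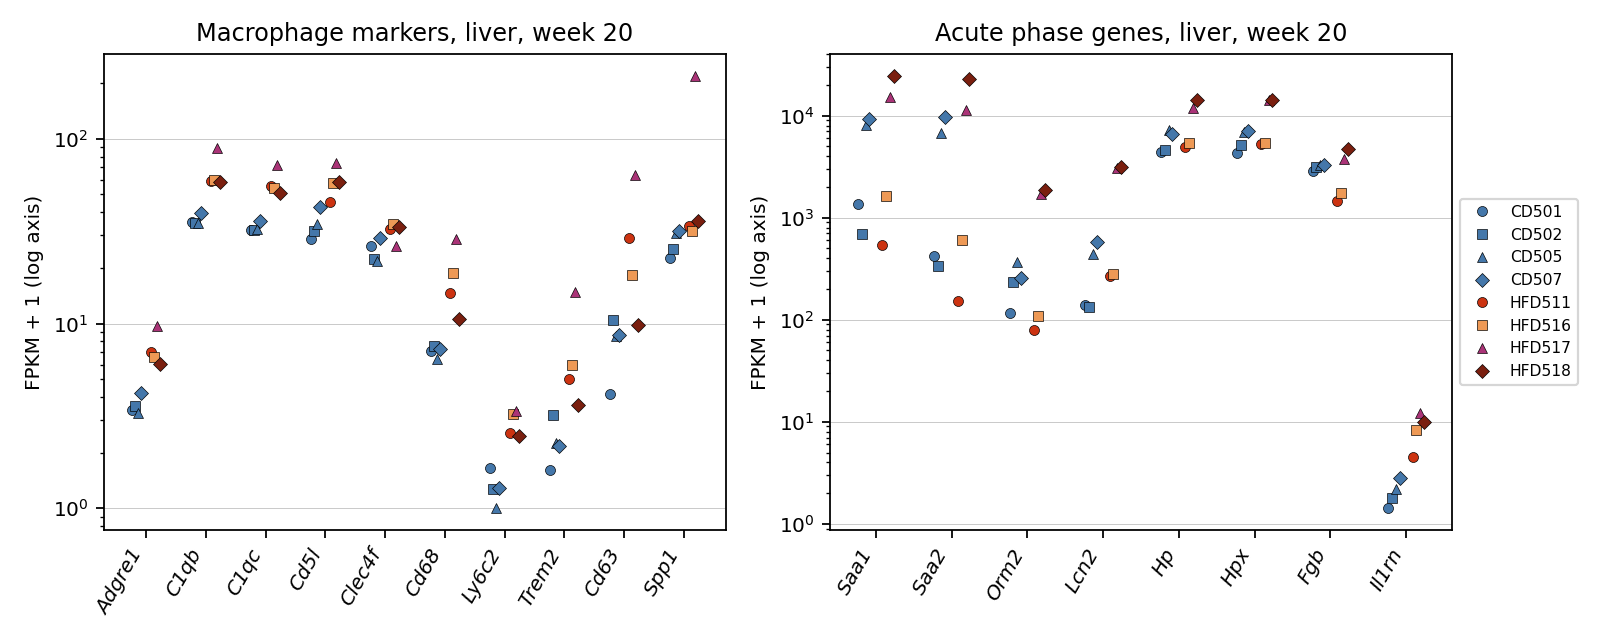
FPKM + 1 on a log axis of 10 macrophage genes (left) and 8 acute phase genes (right) in each of the 8 mice at week 20, 1 point per mouse, CD mice in blue and HFD mice in red shades. Adgre1 and C1qb separate the feeds, whereas Saa1 ranges from 533 to 24589 FPKM within the HFD mice.

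Acute phase genes varied widely inside each group. Of 27 tested, 22 had a higher mean in HFD mice and 1 rose, with a median of 0.52. The median was 0.32 without CD501, 0.79 without HFD511, 0.23 without HFD517 and 0.14 without HFD518. Without both HFD517 and HFD518 it was -0.23, and 3 genes fell and none rose. Saa1, the main acute phase protein of the mouse, was at 1375, 685, 8069.5 and 9371 FPKM in the CD mice and 533, 1647, 15105 and 24589 FPKM in the HFD mice (log2 fold change 0.55, standard error 1.48, adjusted p = 0.91). CD501 and CD502 were low, CD505 and CD507 high, HFD511 and HFD516 low, and HFD517 and HFD518 higher than any other mouse. Lcn2 was at 139.8, 132, 437 and 576 FPKM in the CD mice and 265, 282, 3035 and 3158 FPKM in the HFD mice (log2 fold change 1.81, standard error 1.05, adjusted p = 0.49) and haptoglobin, Hp, at 4421, 4555, 7305 and 6550.1 FPKM in the CD mice and 4905, 5362, 11766 and 14103 FPKM in the HFD mice (log2 fold change 0.54, standard error 0.36, adjusted p = 0.55), in a like order. HFD518 was the highest HFD mouse in 19 of the 27 genes, against 5.92% of all genes tested. HFD511 was the lowest in 21 of them, against 12%. Saa1 and Saa2 are near-identical copies, so their split is uncertain. The gene that rose was Il1rn, the antagonist of the interleukin-1 receptor, at 0.42, 0.78, 1.17 and 1.81 FPKM in the CD mice and 3.53, 7.40, 11.2 and 8.88 FPKM in the HFD mice (log2 fold change 2.06, standard error 0.31, adjusted p = 0.015), without overlap, and it missed the threshold without CD502 (adjusted p up to 0.057). With both HFD517 and HFD518 left out, 81 DEGs were found at week 20, and with both CD501 and CD502 left out, 31.

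Clock genes (16, median 0.05) and immediate early genes (12, median 1.23) held none that passed. Dbp, a clock output with a strong daily rhythm, was at 16.9, 57.5, 81.3 and 88.2 FPKM in the CD mice and 82.0, 89.4, 17.0 and 16.3 FPKM in the HFD mice, low in CD501, HFD517 and HFD518. Fos was at 1.22, 4.91, 0.65 and 0.29 FPKM in the CD mice and 55.4, 2.59, 27.9 and 9.65 FPKM in the HFD mice (log2 fold change 2.78, standard error 0.90, adjusted p = 0.18), high in HFD511 and HFD517. All 12 immediate early genes had a higher mean in HFD mice, and without HFD518 3 of them passed. The hours of collection are not given in the sources used here, and their part in these values was not tested.

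Other genes with extreme changes are known for varied roles. Ly6d, a small surface protein, was at 0.74, 0.59, 2.88 and 3.51 FPKM in the CD mice and 36.4, 18.5, 153 and 18.0 FPKM in the HFD mice (log2 fold change 3.86, standard error 0.73, adjusted p = 0.045). Rad51b, a recombination protein, was at 0.52, 0.56, 2.47 and 1.18 FPKM in the CD mice and 24.2, 10.3, 12.4 and 9.76 FPKM in the HFD mice (log2 fold change 2.79, standard error 0.34, adjusted p = 0.0084). Adgrv1, a large adhesion receptor, was at 1.74, 1.54, 2.30 and 1.90 FPKM in the CD mice and 14.9, 30.9, 18.8 and 5.99 FPKM in the HFD mice (log2 fold change 2.51, standard error 0.40, adjusted p = 0.021). All 3 were without overlap between the feeds, which was a condition for naming them. On the lower side, Ugt1a5, a glucuronosyltransferase, was at 10.7, 13.1, 8.27 and 34.5 FPKM in the CD mice and 2.81, 1.40, 1.01 and 1.96 FPKM in the HFD mice (log2 fold change -2.49, standard error 0.40, adjusted p = 0.022) and the predicted gene Gm38481 at 19.4, 24.2, 29.4 and 20.5 FPKM in the CD mice and 10.9, 2.60, 2.13 and 1.79 FPKM in the HFD mice (log2 fold change -2.46, standard error 0.43, adjusted p = 0.03). Gapdh-ps15 is a pseudogene that can share reads with Gapdh and its value (log2 fold change -2.20, standard error 0.30, adjusted p = 0.01) is uncertain for that reason. Rad51b and Gapdh-ps15 passed with each mouse left out in turn, whereas Ly6d missed the threshold without CD501, CD502, CD505, CD507, HFD511 or HFD516 (adjusted p up to 0.14), Adgrv1 without CD501, CD502, CD505, CD507 or HFD517 (adjusted p up to 0.077), Ugt1a5 without CD501, CD502, HFD516 or HFD517 (adjusted p up to 0.072) and Gm38481 without CD501, CD502, CD505, CD507, HFD516 or HFD517 (adjusted p up to 0.096).

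The DEGs of week 20 were then looked up in the other mice of weeks 16 and 24, each week fitted alone in the same way. At week 16, 682 genes (6.74%) rose and 69 (0.682%) fell of 10113 tested. At week 24, 66 (0.65%) rose and 19 (0.187%) fell of 10152 tested. Of the 81 genes higher at week 20, 79 were tested at week 16, 78 had the same sign and 65 rose, with a median log2 fold change of 1.25 there and 1.32 at week 20. At week 24, 74 of 77 had the same sign and 19 rose, with a median of 0.72. The genes lower at week 20 had smaller medians at both other weeks. At week 16, 29 of 37 had the same sign and 15 fell, with a median of -0.54 against -1.52 at week 20, and at week 24, 34 of 36 had the same sign and 7 fell, with a median of -0.74. None passed with the opposite sign at either week. These DEGs were picked by size and adjusted p at week 20, which favors larger medians there. The medians therefore cannot show that an effect differs between weeks, which is tested directly further below.

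Among the genes of fat storage, Cidea had log2 fold changes of 5.41 at week 16 and 4.51 at week 24, and Cd36 had 2.27 and 1.49. Those of Fgf21 were 1.56 and 1.03 and those of Gdf15 2.15 and 1.66. For the lists, medians at weeks 16, 20 and 24 were 0.58, 0.70 and 0.26 for fat uptake and droplets, 0.15, -1.14 and -0.34 for cholesterol synthesis, -0.36, -0.67 and 0.01 for amino acid and urea cycle enzymes, and -0.72, -1.09 and -0.67 for male-biased genes. The last list was lower in HFD mice at each of the 3 weeks.

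Whether the effect of HFD differed between weeks was tested in a single limma fit of all 48 liver libraries over 10879 genes. Between weeks 20 and 16 no gene passed (0%), with 373 at an unadjusted p below 0.05. Between weeks 20 and 24, 8 genes passed (0.0735%), with 950 unadjusted, and against the mean of the 5 other weeks 1 gene passed (0.00919%), with 806 unadjusted. The 8 were C1s2, Gas6, Itga4, Cyp2f2, Fas, Csf2rb, Cps1 and Zdhhc13.

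C1s2, a complement protease with a close copy in the genome, had the largest difference (4.20 log2 units, standard error 0.72, adjusted p = 0.011), with 3 of the 4 HFD mice of week 24 at or near 0. At week 24 it was at 30.3, 48.9, 4.48 and 37.2 FPKM in the CD mice and 0.01, 4.81, 0 and 0 FPKM in the HFD mice, and at week 20 at 29.4, 32.1, 109 and 24.4 FPKM in the CD mice and 35.9, 44.8, 30.7 and 108 FPKM in the HFD mice. Gas6, the ligand of the TAM receptors that macrophages use to take up dead cells, was at 18.5, 20.7, 22.0 and 20.5 FPKM in the CD mice and 39.8, 33.0, 63.2 and 80.5 FPKM in the HFD mice at week 20 and at 44.1, 43.4, 30.8 and 44.7 FPKM in the CD mice and 20.3, 20.8, 25.4 and 40.3 FPKM in the HFD mice at week 24. The effect of HFD was higher at week 20 by 1.91 log2 units (standard error 0.35, adjusted p = 0.012). Fas, the death receptor, was higher by 1.12 (standard error 0.23, adjusted p = 0.038), at 10.3, 8.36, 8.27 and 9.90 FPKM in the CD mice and 12.3, 14.5, 20.4 and 24.3 FPKM in the HFD mice at week 20. The integrin Itga4 differed by 0.88 (adjusted p = 0.027). Csf2rb, a cytokine receptor chain, and Zdhhc13, a palmitoyltransferase, differed by 1.05 (adjusted p = 0.038) and 0.83 (adjusted p = 0.042).

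Cyp2f2 and Cps1 had a lower effect at week 20 than at week 24, by -1.03 (standard error 0.20, adjusted p = 0.027) and -1.35 (standard error 0.29, adjusted p = 0.042). Cps1 at week 24 was at 393, 188, 193 and 327 FPKM in the CD mice and 303.8, 452, 323 and 270.2 FPKM in the HFD mice. Il1rn stood apart from the mean of the 5 other weeks, by 1.32 (standard error 0.25, adjusted p = 0.038). Its week-16 values were 1.03, 0.74, 1.11 and 1.84 FPKM in the CD mice and 2.39, 3.62, 3.24 and 3.40 FPKM in the HFD mice, with an effect of 0.95. These week differences leaned on single mice. With any of the other 7 mice of week 20 left out, C1s2 and Gas6 passed against week 24, and without HFD518 no gene did. The number that passed was 2 without CD501 or CD502, 3 without HFD517, 4 without CD507, 9 without CD505, 18 without HFD516 and 46 without HFD511.

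**Figure D5:**
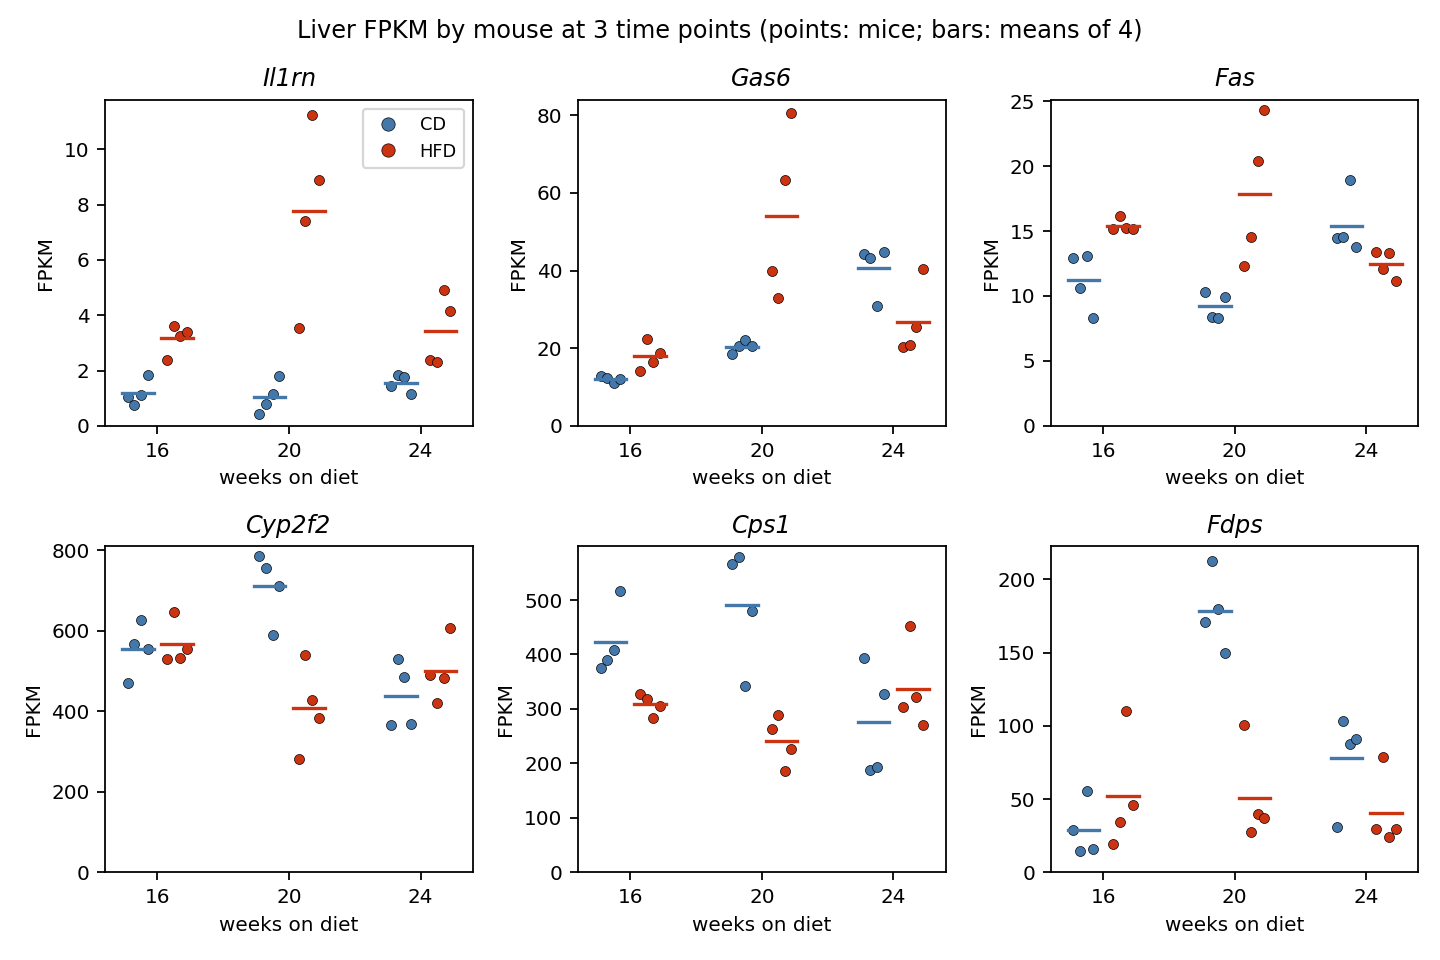
FPKM of Il1rn, Gas6, Fas, Cyp2f2, Cps1 and Fdps in each CD and HFD mouse of weeks 16, 20 and 24, with points for mice and bars for means of 4 mice. For Gas6 the HFD mice of week 20 reach 33.0 to 80.5 FPKM and the CD mice 18.5 to 22.0 FPKM, and for Fdps the CD mice of week 20 are the highest of the 3 weeks.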

How the data were processed

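Poly(A) RNA of 96 samples was sequenced on BGISEQ-500, and the 48 liver columns of the table that the authors deposited as FPKM were used here, 8 of them for week 20. Islet columns were not used, and the values of some list members are not reported here. The submitters' processing notes name HISAT2 2.0.4, Bowtie2 2.2.5, RSEM 1.1.12, DESeq2 and the build GRCm38.p5, without their order, and whether strand was used in counting is not given in the sources used here. Group means, log2 ratios, p-values and q-values of the authors' own comparisons were in the same files and were left out. FPKM carry no read counts, so the depth behind each value is unknown and no counting interval can be given. Where the labels do not say that same-week mice came from separate cages or days, p-values measure the spread between these mice alone.

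The filter kept genes that reached 1 FPKM in 4 or more of the 8 week-20 libraries, and these were tested on log2(FPKM + 1) with limma 3.58.1 in R 4.3.3, with an intensity trend and robust variances. Differences between weeks were contrasts in 1 fit of 48 libraries and 12 groups, over genes that reached 1 FPKM in 4 or more of the 48. Python 3.11.15, numpy 2.4.6, pandas 2.3.3 and matplotlib 3.10.9 served for summaries and plots. On simulated data, 182 to 191 of 200 genes changed by 1.5 log2 units were recovered in 5 simulations of week 20, with 1 to 3 false calls. The changed genes were drawn from those that passed the filter and whose CD mean was above a stricter cutoff than its 1 FPKM. Each gene varied independently there, whereas mice such as HFD518 differed over many genes at once. These figures therefore do not carry over to weakly expressed genes or to shifts shared by many genes.

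The 40 gene lists (607 genes, 1 of them not matched by symbol in the files), the comparison and the tests were chosen with earlier results of these data known. Genes named are the 12 highest and 12 lowest DEGs without overlap, members of the lists, and up to 5 genes per week difference. Others are marked as named after their values were seen, and these include Csf2rb, Cps1 and Zdhhc13 as week differences. Alternatives were another pseudocount (0.1), no filter, 2 other scalings, plain variances, a fit of all 12 groups and each mouse left out, and, added after seeing the data, 2 pairs of mice left out. In week-20 fits with mice left out, the filter asked for 1 FPKM in 3 or more libraries.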

Additional observations from a re-analysis of the deposited data

Results flagged for a closer look

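Between weeks 20 and 24, the effect of HFD differed past the threshold in 8 genes. Values of single mice at both weeks stand in the text for C1s2, Gas6 and Cps1, and at week 20 alone for Fas and Cyp2f2. The difference, week 20 minus week 24 in log2 units, was 4.20 for C1s2, 1.91 for Gas6, 1.12 for Fas, 1.05 for Csf2rb, 0.88 for Itga4, 0.83 for Zdhhc13, -1.03 for Cyp2f2 and -1.35 for Cps1. Il1rn differed from the mean of the 5 other weeks by 1.32. Without HFD518 none of the differences between weeks 20 and 24 passed.

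A mouse stood far from the 3 others of its group in 29 of 278 groups of 4 checked (139 genes, the gap over the range above Dixon's 95% critical value). About 1 in 20 groups would be marked if values were normal and groups independent. FPKM are skewed, genes of 1 pathway vary together and some genes were named for their values, so the 29 cannot be judged against that rate. HFD511 was the high mouse for Fdps (100.6 FPKM), Sqle (12.9 FPKM), Cyp51 (18.3 FPKM), Nsdhl (13.9 FPKM), Mvd (8.71 FPKM) and Hmgcs1 (64.1 FPKM), all of cholesterol synthesis. It was also high for Cyp3a11 (586 FPKM), Ehhadh (150.3 FPKM), Gm38481 (10.9 FPKM) and Cyp2c69 (0.38 FPKM), and low for Atf4 (35.8 FPKM). HFD517 was high for Spp1 (218 FPKM), Ly6d (153 FPKM), C1qb (87.8 FPKM) and Srd5a1 (21.9 FPKM). HFD516 was low for Pmvk (7.77 FPKM) and high for Ugt2b1 (85.5 FPKM).

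Among CD mice, CD507 was high for Scd1 (2653 FPKM), Asl (490.4 FPKM), C1qb (38.4 FPKM), C1qc (35.0 FPKM), Fabp4 (10.2 FPKM) and Cd163 (3.49 FPKM), and low for Irs1 (1.58 FPKM). CD501 was high for Cyp2b9 (3.67 FPKM) and low for Marco (1.01 FPKM) and Clec7a (0.91 FPKM). CD502 was high for Cyp27a1 (261 FPKM) and CD505 for C1s2 (109 FPKM). The cause of these single values was not tested.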

How the results depend on the processing

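No paired analysis was possible because the 2 diet groups compared share no replicate number. The 119 DEGs became 187 in a fit of all 12 groups, 72 without the filter on low values and 31 without mice CD501 and CD502, and 58 to 220 with 1 mouse left out (58 without CD502, 62 without CD505, 64 without HFD517, 69 without CD501, 71 without CD507, 78 without HFD516 and 220 without HFD518). The 176 genes that rose became 664, 75 and 20 in the first 3 of these settings and 51 to 716 with 1 mouse left out, and the 76 that fell became 181, 39 and 12, and 24 to 100. Without both HFD517 and HFD518, 29 fell. Median ratio scaling gave 119 DEGs with 61.3% higher, against 68.1%. The 8 differences between weeks 20 and 24 became 3 with a pseudocount of 0.1 and 0 to 46 with 1 mouse left out. The 1 difference from the other weeks became 0 as TPM, 2 with median ratio scaling, 5 without the filter, 0 with a pseudocount of 0.1 and 0 to 71 with 1 mouse left out. Between weeks 20 and 16 no gene passed in any setting. Of 86 genes given with values that passed, 15 kept the call in every setting and 50 did so without the filter on low values, and none changed sign in any setting. With 1 mouse left out, list medians also moved by over 1.5 times for bile acid genes (-0.64 to -0.31), fatty acid oxidation (0.25 to 0.51), secreted factors (0.15 to 0.37), growth hormone signaling (-0.07 to 0.23), endothelial markers (0.12 to 0.40) and stellate cell markers (0.14 to 0.40). Unknown depth limits statements on genes near 1 FPKM. The cause of these shifts was not tested.

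Some genes that had not passed changed sign. Median ratio scaling gave -0.07 for Cyp2e1 and -0.06 for Gpt2. Without mice CD501 and CD502 the log2 fold changes were -0.10 for C1s2, -0.10 for Cpt1a, -0.14 for Cyp2e1, 0.18 for Ddit3, -0.12 for Gpt2, -0.10 for Mup20, -1.03 for Saa1 and -0.11 for Timd4. Without mice HFD517 and HFD518 they were 0.08 for Alb, 0.63 for Cyp4a10, 0.13 for Cyp7a1, 0.72 for Dbp, 0.17 for Ddit3, -0.12 for Hp, -0.05 for Hspa5, 0.08 for Pnpla2 and -1.63 for Saa1. With 1 mouse left out, the range was -0.12 to 0.74 for C1s2, -0.11 to 0.20 for Cyp2e1, -0.78 to 0.31 for Cyp4a10, -0.27 to 0.25 for Ddit3, -0.15 to 0.17 for Gpt2, -0.09 to 0.61 for Hspa5, -0.25 to 0.24 for Pnpla2, -0.29 to 1.55 for Saa1 and -0.03 to 0.27 for Timd4.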

Other observations

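Other DEGs, named after their values were seen, code for secreted or metabolic proteins. Serpina7, the thyroxine-binding globulin, was at 15.7, 13.2, 15.3 and 8.19 FPKM in the CD mice and 84.2, 47.2, 124 and 45.8 FPKM in the HFD mice (log2 fold change 2.35, standard error 0.34, adjusted p = 0.015). Osbpl3, an oxysterol binding protein relative, was at 0.16, 0.19, 0.28 and 0.32 FPKM in the CD mice and 5.80, 4.83, 6.61 and 1.46 FPKM in the HFD mice (log2 fold change 2.08, standard error 0.31, adjusted p = 0.015), and Gpat3, an acyltransferase of triglyceride synthesis, was at 1.02, 0.71, 1.82 and 2.96 FPKM in the CD mice and 6.84, 4.40, 5.92 and 6.56 FPKM in the HFD mice (log2 fold change 1.46, standard error 0.25, adjusted p = 0.02). The liver carboxylesterase Ces2a was at 112.8, 119, 97.6 and 105.9 FPKM in the CD mice and 36.3, 45.3, 18.3 and 33.2 FPKM in the HFD mice (log2 fold change -1.75, standard error 0.23, adjusted p = 0.0089) and Srd5a1, a steroid reductase, at 30.9, 43.6, 32.3 and 36.7 FPKM in the CD mice and 15.7, 15.8, 21.9 and 14.9 FPKM in the HFD mice (log2 fold change -1.03, standard error 0.15, adjusted p = 0.0094). Agxt, which detoxifies glyoxylate, was at 197, 201, 149.8 and 128 FPKM in the CD mice and 95.4, 99.5, 53.1 and 89.5 FPKM in the HFD mice (log2 fold change -1.01, standard error 0.22, adjusted p = 0.045). None of these 6 genes overlapped between the feeds. Osbpl3 reached the expression filter through the HFD mice alone, so that it differs between the feeds by the filter itself. Ces2a and Srd5a1 passed with any mouse left out, and Serpina7 missed the threshold without CD502 (adjusted p up to 0.056), Osbpl3 without CD502 or CD505 (adjusted p up to 0.056), Gpat3 without CD501, CD505 or HFD517 (adjusted p up to 0.057) and Agxt without CD501, CD502, CD505, CD507, HFD511, HFD516 or HFD517 (adjusted p up to 0.12).

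Week 20 was an extreme of the 6 weeks for many genes of several lists, of which some are given here. The mean of the HFD mice was the lowest of the 6 weeks at week 20 in 17 of 23 amino acid and urea cycle genes (73.9%), against 11.6% of all genes tested. It was the highest of the 6 weeks in 20 of 27 acute phase genes (74.1%), against 17.1%. The same held for 10 of 12 immediate early genes (83.3%) and 6 of 7 markers of recruited and lipid-laden macrophages (85.7%). It also held for 4 of 5 MHC class II genes (80.0%), 6 of 9 chemokine and inflammatory genes (66.7%) and 7 of 11 Kupffer cell markers (63.6%). The summed level of the amino acid and urea cycle list was 5351 to 9248 FPKM in the HFD mice of week 20, 8959 to 10266 FPKM in those of week 16 and 7989 to 17253 FPKM in those of week 24. In matrix genes the week-20 mean was the highest of the 6 weeks in 15 of 18 genes for CD mice (83.3%) and in 12 of 18 for HFD mice (66.7%). Over all genes tested these shares were 11.6% for CD mice and 17.1% for HFD mice.

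Red cell transcripts, which come with blood left in the tissue, summed to 453 to 862 FPKM in CD mice and 317 to 500.9 FPKM in HFD mice (5 genes, none passed, median -0.77). Hba-a1 was at 153, 153, 302 and 269 FPKM in the CD mice and 111.6, 105.6, 155 and 97.1 FPKM in the HFD mice (log2 fold change -0.85, standard error 0.25, adjusted p = 0.12). Genes of ceramide and sphingolipid metabolism held none that passed of 15 (median 0.26), and neither did the 5 proliferation genes tested (median 0.01).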
